A study of Homo sapiens with 16 samples.

Results

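The comparison described here is that of tumors treated with vemurafenib alone (V) with tumors of mice given vehicle (control), taken across genes, and it asks what inhibition of BRAF by itself did to the RNA of established melanoma tumors. Of 23260 gene symbols measured, 12834 reached 1 FPKM or more in 4 or more of these 8 tumors and were kept. FPKM are fragments per kilobase of transcript, scaled also to the number of mapped fragments of the library. Of the genes kept, 4 passed this filter only through the V tumors and 1 only through the control tumors.

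All tumors were xenografts of A375, a human melanoma cell line with an activating mutation of BRAF, grown on both flanks of NOG mice (NOD/Scid/IL2γR-/-), which lack most lymphoid cells and supply the stroma of the tumor. V mice received vemurafenib by intraperitoneal injection at 25 mg/kg, 2 times a day, and control mice received the vehicle of the drugs, and tumors were removed on day 5. There were 4 V tumors (16L, 16R, 19L and 19R) from 2 mice and 4 control tumors (2L, 2R, 5L and 5R) from 2 mice, in which the number stands for the mouse and the letter for the left or right flank. The series also holds 4 tumors treated with the BET inhibitor JQ1 (J) and 4 treated with both drugs (J+V), which enter the estimate of the spread. The tumors come from a single cell line and the flanks of a mouse share a host, so the p values measure the spread between these tumors and not between patients or lines. Per-tumor values are given below in the order 16L, 16R, 19L and 19R for V, then 2L, 2R, 5L and 5R for control.

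BRAF is a kinase that phosphorylates MEK, which in turn phosphorylates ERK. The mutant kinase signals without RAS, and ERK output holds cyclin D1 and the ETS and AP-1 transcription factors high. ERK also induces its own brakes, the dual specificity phosphatases (DUSP) and the Sprouty and SPRED proteins, so the RNA of these genes is commonly read as a measure of pathway output. Vemurafenib binds the mutant kinase in its active form.

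Summed over all symbols, V tumors held 1033864.6 to 1383426.2 FPKM and control tumors 970443.42 to 1281006.3 FPKM. Small nucleolar RNAs took 46.9% ± 5.21 (SD, n = 4) of this sum in V tumors and 44.9% ± 5.35 (SD, n = 4) in control tumors. Since the number of reads is unknown, values carry no counting interval. Across all genes kept, flanks of 1 mouse were about as close as tumors of the other mouse in the group, with a median correlation of log2 values of 0.954 over 4 pairs and 0.953 over 8 pairs, while V and control tumors had 0.951 over 16 pairs. The V tumor 19R was closer to the control tumors (median 0.960) than to the other V tumors (0.954). The control tumor 5R was the farthest from its own group (0.943) and was closer to the V tumors (0.947). All 13 markers of the melanoma line were measured, summing to 1325.88 to 1750.44 FPKM in V tumors and 1541.21 to 2014.77 FPKM in control tumors, the highest of them in 5R.

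No gene passed an adjusted p of 0.05 in V against control by limma, a linear model fitted across all genes (0 of 12834, 0%). The smallest adjusted p was 0.105. Fold changes are differences of mean log2(FPKM + 0.5), V minus control, which understates the change of genes with low FPKM. At an unadjusted p under 0.05 there were 1024 genes higher in V (7.98%) and 1049 lower in V (8.17%). In 230 genes every V tumor was above every control tumor (1.79%), and in 256 every V tumor was below every control tumor (1.99%), together 486 genes (3.79%). These shares are the background against which the gene groups below are read. The counts at an unadjusted p under 0.05 moved by more than 1.5 times in at least 1 direction without the V tumor 16R, to 622 higher and 587 lower, without the control tumor 5L, to 692 and 617, without the V tumor 19L, to 794 and 692, and, for the higher genes, without 5R, to 1764. Counts of genes without overlap can only grow when a tumor is left out. Every V tumor lay below every control tumor in 3.86% of all genes without 16L, 6.51% without 19R, 4.22% without 2L, 2.45% without 2R, 3.14% without 5L and 6.97% without 5R, against which the counts given below for these settings are read. At an unadjusted p under 0.05, 8.9% of all genes were lower without 16L, 4.57% without 16R, 5.39% without 19L and 11.4% without 19R. The lower share was 9.64% without 2L, 6.16% without 2R, 4.81% without 5L and 10.4% without 5R. In the same order of tumors, the higher share was 8.23%, 4.85%, 6.19%, 8.94%, 8.1%, 5.63%, 5.39% and 13.7%. The left-out counts of lists at this p are read against these shares. Without the V mouse 16, 5.12% of all genes were lower at this p, and without the V mouse 19, 7.35% were higher. Without the control mouse 2, 7.99% were lower and 6.08% higher. Counts of 0 or 1 gene of a list at an unadjusted p under 0.05 changed by at most 2 genes when a single tumor was left out, except where a larger change is given. When every tumor was scaled to a common FPKM sum, the counts at an unadjusted p under 0.05 were 480 higher and 1160 lower, and 1 gene was called.

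The call of 0 genes rested on a pair of tumors. Without the control tumor 5R, 449 genes passed the same test, 266 of them higher in V (2.07%) and 183 lower (1.43%). Without the V tumor 19R, 180 genes passed, 57 of them higher (0.444%) and 123 lower (0.958%). The 2 sets shared 66 genes, which are 14.7% of the calls without 5R and 36.7% of the calls without 19R. Leaving out any other single tumor gave 0 calls. Leaving out the control mouse 5 gave 198, the control mouse 2 gave 2, the V mouse 19 gave 1 and the V mouse 16 gave 0. The plot of all genes shows how narrow the spread of fold changes was for most genes. Of the 57 genes with an absolute log2 fold change of at least 2, 54 were short RNAs such as small nucleolar RNAs and microRNA precursors.

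**Figure D1:**
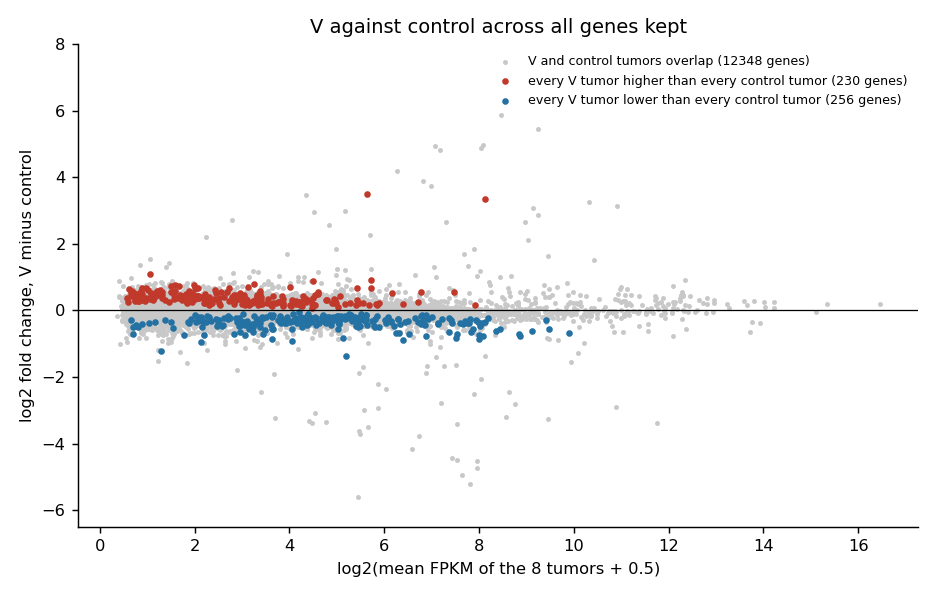
Log2 fold change of V over control (vertical axis) against the mean level of the 8 tumors (horizontal axis, log2 of FPKM + 0.5), 1 point per gene for the 12834 genes kept. Red points are the 230 genes with every V tumor above every control tumor, blue points the 256 with every V tumor below every control tumor, and grey points the other genes. No gene passed the adjusted test.

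The output of the MAPK pathway was lower in V tumors in a subset of its genes and not in others. Of 38 measured genes of feedback and output, 11 were lower at an unadjusted p under 0.05 (28.9%, against 8.17% of all genes) and 1 was higher (2.63%, against 7.98%). For 6 genes no V tumor reached the level of any control tumor (15.8%, against 1.99% of all genes), and for 10 without 19R (6.51% of all genes in that setting) or without 2R (2.45%). The median log2 fold change was -0.17, against 0.00 for all genes kept. The count of 11 was 6 without the V mouse 16.

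Among the feedback genes, DUSP6, the phosphatase that removes phosphate from ERK itself, had 99.2, 103, 89.7 and 106 FPKM in V tumors, against 117, 113, 117 and 151 FPKM in control tumors. Every V tumor lay below every control tumor, by a small margin, and 5R was the highest of all (log2 fold change -0.31 ± 0.12 SE, adjusted p = 0.237). DUSP5, a phosphatase that acts on ERK in the nucleus (chr10:112257665-112271291), had 6.16, 8.46, 8.03 and 8.52 FPKM in V tumors, against 10.9, 11.99, 13.7 and 15.1 FPKM in control tumors. The groups were well apart, and the V level was 0.617 times that of control (log2 fold change -0.70 ± 0.14 SE, adjusted p = 0.13). DUSP4, a related nuclear phosphatase, had 50.01, 43.9, 48.5 and 51.7 FPKM in V tumors, against 46.6, 42.4, 51.05 and 64.9 FPKM in control tumors, and the groups overlapped with 5R alone above all V tumors (log2 fold change -0.06 ± 0.12 SE, adjusted p = 0.849).

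The Sprouty and SPRED inhibitors overlapped between the groups. SPRY4 had 25.9, 28.4, 33.5 and 28.4 FPKM in V tumors, against 32.6, 26.9, 26.8 and 45.6 FPKM in control tumors, and SPRY2 had 42.9, 32.2, 43.2 and 27.9 FPKM in V tumors, against 29.4, 22.7, 40.4 and 59.2 FPKM in control tumors. In both genes 5R was the highest tumor, with log2 fold changes of -0.15 and 0.01 and adjusted p of 0.638 and 0.985. The log2 fold changes of SPRED1 and SPRED2, which bring NF1 to the membrane and so restrain RAS, were 0.06 and 0.18 with overlapping groups.

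Of the ETS factors that ERK induces in melanoma, ETV4 and ETV5 had log2 fold changes of -0.03 and 0.07 with overlapping groups. ETV1, a further member, was higher, with 43.02, 52.7, 48.3 and 43.9 FPKM in V tumors, against 38.1, 33.6, 39.98 and 38.2 FPKM in control tumors. All V tumors were above all control tumors (log2 fold change 0.32 ± 0.07 SE, adjusted p = 0.13). FOSL1, the FRA-1 subunit of AP-1, had 18.5, 16.6, 20.9 and 35.3 FPKM in V tumors, against 34.9, 59.5, 39.4 and 31.8 FPKM in control tumors. The V tumors 16L, 16R and 19L were below all controls, while 19R lay among them (log2 fold change -0.86 ± 0.28 SE, adjusted p = 0.173).

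Among secreted and surface products of the pathway, HBEGF, a ligand of the EGF receptor (chr5:139712428-139726188), had 2.21, 1.99, 1.67 and 2.31 FPKM in V tumors, against 2.71, 4.796, 4.31 and 3.57 FPKM in control tumors. LIF, a cytokine of the interleukin 6 family (chr22:30636442-30642748), had 1.78, 2.48, 2.44 and 3.19 FPKM in V tumors, against 4.94, 4.66, 4.44 and 7.21 FPKM in control tumors, so that the highest V tumor, 19R, was still below the lowest control tumor. The log2 fold changes were -0.75 ± 0.14 and -0.96 ± 0.20 (SE), with an adjusted p of 0.13 for both. Without 5R the adjusted p of HBEGF, LIF and DUSP5 were 0.0288, 0.0452 and 0.0452, and without 19R they were 0.0368, 0.0361 and 0.0411. No other single tumor gave calls when left out, so these values are no separate support for these genes. Over all alternatives, the highest adjusted p by limma was 0.451 for each of them. PLAUR, the urokinase receptor, had 14.8, 13.99, 14.8 and 18.3 FPKM in V tumors, against 18.4, 23.2, 23.4 and 23.8 FPKM in control tumors. No V tumor reached the lowest control tumor, 2L, although 19R came close to it (log2 fold change -0.51 ± 0.19 SE, adjusted p = 0.226).

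CCND1, which encodes cyclin D1 and couples ERK to the cell cycle (chr11:69455924-69469242), had 47.04, 40.6, 45.5 and 51.02 FPKM in V tumors, against 56.7, 68.7, 61.3 and 68.1 FPKM in control tumors. The groups did not overlap, and the V level was 0.725 times that of control (log2 fold change -0.46 ± 0.13 SE, adjusted p = 0.154). IER3 and EPHA2 were lower with overlap, by log2 fold changes of -0.40 and -0.77. MMP1 had 25.2, 25.1, 20.1 and 20.2 FPKM in V tumors, against 25.8, 18.4, 45.8 and 77.2 FPKM in control tumors, with high values in both flanks of control mouse 5 only (log2 fold change -0.67 ± 0.41 SE, adjusted p = 0.451). MYC, HMGA2, PHLDA1 and TGFA had log2 fold changes of -0.16, 0.05, -0.01 and 0.00, with adjusted p from 0.669 to 0.999. EREG stayed under 1 FPKM in the 8 tumors.

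**Figure D2:**
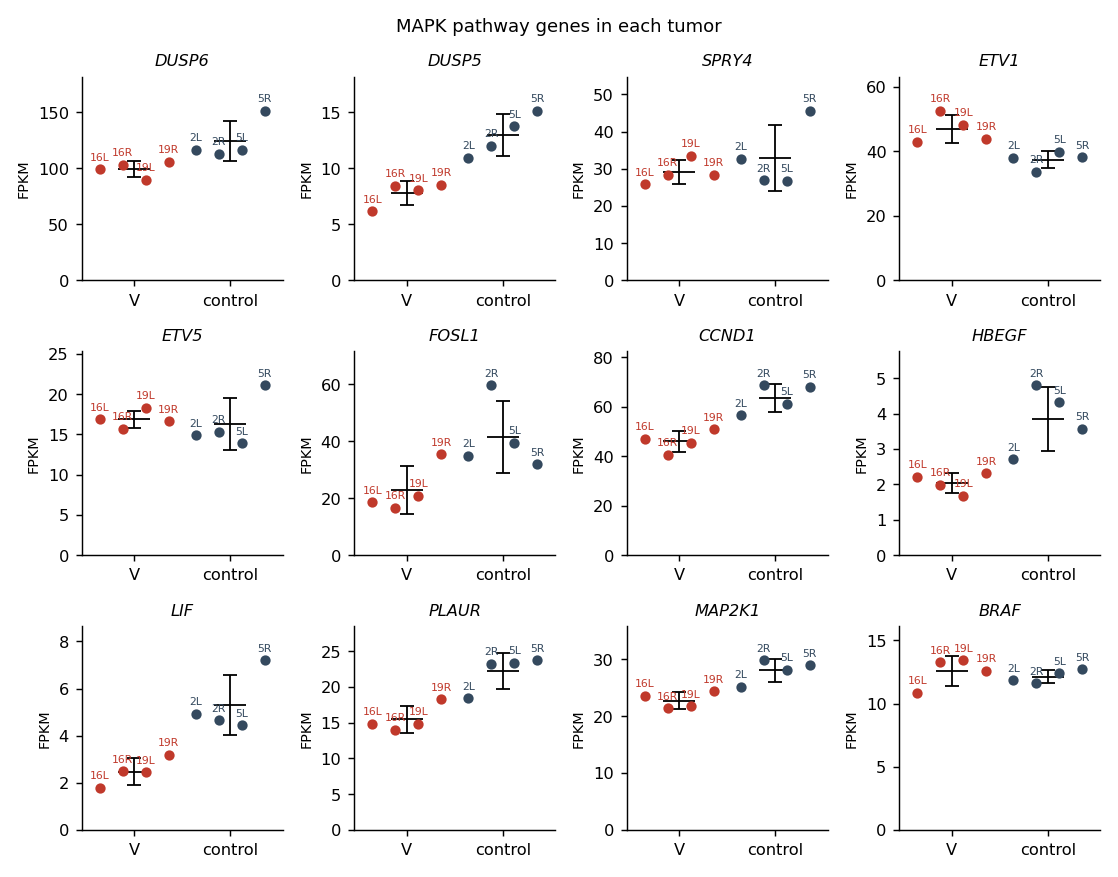
FPKM of 12 MAPK pathway genes (vertical axes, from 0) in the 4 V tumors (red) and the 4 control tumors (dark blue), labelled by tumor, with the mean as a horizontal dash and the SD as bars. DUSP6, DUSP5, CCND1, HBEGF, LIF, PLAUR and MAP2K1 have every V tumor below every control tumor, ETV1 has every V tumor above, and SPRY4, ETV5, FOSL1 and BRAF overlap.

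The kinases of the cascade had small differences. Of 19 measured components, 1 was higher and 1 was lower at an unadjusted p under 0.05, and the median log2 fold change was 0.02, or -0.02 without 2L. The lower count was 4 without 19R, 3 without 2L and 2 without 2R or 5R, and the higher count was 2 without 16L or 5R and 0 without 16R or 19L. BRAF itself had 10.8, 13.3, 13.4 and 12.6 FPKM in V tumors, against 11.8, 11.6, 12.4 and 12.7 FPKM in control tumors, with overlapping groups (log2 fold change 0.04 ± 0.09 SE, adjusted p = 0.869). MAP2K1, which encodes MEK1, was the lower one, with 23.5, 21.4, 21.7 and 24.3 FPKM in V tumors, against 25.2, 29.8, 28.1 and 28.9 FPKM in control tumors. Its groups did not overlap (log2 fold change -0.29 ± 0.07 SE, adjusted p = 0.13). NF1, a GTPase activating protein that switches RAS off, was the higher one, with a log2 fold change of 0.24. NRAS and HRAS, which encode RAS proteins, had log2 fold changes of -0.03 and -0.22 with overlapping groups. MAP3K8 was under 1 FPKM in every tumor, at most 0.203.

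Of 22 measured immediate early genes, which answer to ERK and other signals within minutes, 5 were lower and 1 higher at an unadjusted p under 0.05. That count of 5 was 2 without 16L, 3 without 2R and 8 without 19R. KLF10, a TGF-beta inducible repressor, had 9.35, 10.5, 8.23 and 10.7 FPKM in V tumors, against 13.04, 17.1, 12.7 and 15.02 FPKM in control tumors. It was the member whose groups did not overlap (log2 fold change -0.55 ± 0.13 SE, adjusted p = 0.13). Without 19R 6 members had every V tumor below every control tumor (6.51% of all genes), without 5L 3 did (3.14%) and without 2L 2 did (4.22%). IER5, PPP1R15A and JUN had log2 fold changes of -0.50, -0.43 and -0.34, all with overlap. FOS, EGR1, JUNB and DUSP1 had log2 fold changes between -0.08 and 0.07.

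The genes of the cell cycle were lower in V tumors as a group. These genes are switched on by E2F factors once cyclin D and CDK4 or CDK6 have inactivated the RB protein, for entry into S phase, and then by MYBL2, FOXM1 and NF-Y for mitosis. Of 61 measured G1/S genes, 40 were lower at an unadjusted p under 0.05 (65.6%) and 0 were higher, 60 had a negative fold change, and the median log2 fold change was -0.36. Of 71 G2/M genes, 27 were lower (38%) and 0 higher, with a median of -0.36. The mean of the G1/S list, set to 0 in control, was -0.42, -0.49, -0.45 and -0.09 in V tumors and 0.01, 0.18, 0.02 and -0.22 in control tumors on the log2 scale. Thus 19R stood above 5R in this mean, and the other 3 V tumors stood below every control tumor. The mean of the G2/M list was -0.34, -0.42, -0.43 and -0.08 in V tumors and -0.01, 0.24, 0.08 and -0.31 in control tumors. The mean of the 9 measured fibroblast markers ran the other way, at 0.65, 0.41, 0.53 and 0.11 in V tumors and -0.27, -0.34, -0.04 and 0.65 in control tumors, with 16L, 16R, 19L and 5R the 4 highest. Its part in the cell cycle difference was not tested.

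The counts of cell cycle genes moved with single tumors. For G1/S genes the count of 40 was 20 without 16R (4.57% of all genes in that setting), 25 without 19L (5.39%), 24 without 2R (6.16%) and 18 without 5L (4.81%). For G2/M genes the count of 27 was 10 without 16R, 13 without 19L, 11 without 2R, 9 without 5L and 43 without 5R, and it was 1 without the V mouse 16. For G1/S genes it was 14 without the V mouse 16 and 19 without the control mouse 2. With the groups compared by overlap, 8 G1/S and 5 G2/M genes had every V tumor below every control tumor, or 13.1% and 7.04% against 1.99% of all genes. These counts were 35 and 29 without 19R, where 6.51% of all genes had every V tumor below every control tumor, 27 and 36 without 5R (6.97%), and 15 and 12 without 2L (4.22%).

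MYBL2, the MYB factor that drives mitotic genes, had 5.18, 5.23, 5.09 and 7.89 FPKM in V tumors, against 9.400, 10.8, 8.78 and 10.8 FPKM in control tumors. The 19R value stood apart from the other V tumors and was still below every control (log2 fold change -0.73 ± 0.18 SE, adjusted p = 0.141). RFC4, a clamp loader of the replication fork, had 27.1, 23.03, 21.5 and 25.7 FPKM in V tumors, against 33.3, 35.6, 33.5 and 30.04 FPKM in control tumors with no overlap (log2 fold change -0.44 ± 0.11 SE, adjusted p = 0.141). POLA1, the catalytic subunit of DNA polymerase alpha, had 19.5, 19.7, 21.4 and 20.96 FPKM in V tumors, against 24.3, 25.7, 25.5 and 22.3 FPKM in control tumors, a small and even difference of -0.26 on the log2 scale. RRM2, the subunit of ribonucleotide reductase that limits nucleotide supply, had 61.04, 58.3, 53.4 and 72.3 FPKM in V tumors, against 84.8, 93.3, 89.9 and 73.3 FPKM in control tumors. No V tumor reached the controls, although 19R lay just under 5R (log2 fold change -0.48 ± 0.18 SE, adjusted p = 0.213).

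Other regulators of S phase entry had overlapping groups. The log2 fold changes were -0.48 for CDC25A, -0.38 for MCM2, -0.37 for E2F1, -0.25 for CCNE1, -0.22 for CCNE2 and -0.13 for TYMS, with adjusted p between 0.181 and 0.791. CDC6, the loader of the MCM helicase, had 2.68, 6.69, 9.07 and 12.4 FPKM in V tumors, against 19.1, 15.6, 10.96 and 3.73 FPKM in control tumors, a span so wide in both groups that its log2 fold change of -0.61 had an SE of 0.48.

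Among the mitotic genes, CCNB1, which encodes cyclin B1, had 106, 82.1, 85.1 and 119 FPKM in V tumors, against 119, 159, 131 and 124 FPKM in control tumors. The groups did not overlap, with 19R and 2L nearly equal (log2 fold change -0.45 ± 0.18 SE, adjusted p = 0.248). RACGAP1, needed to split the cell, had 27.7, 26.3, 25.3 and 32.6 FPKM in V tumors, against 35.7, 40.5, 36.5 and 37.2 FPKM in control tumors and did not overlap either (log2 fold change -0.42 ± 0.14 SE, adjusted p = 0.176). AURKB, AURKA, UBE2C, PTTG1 and BIRC5 had log2 fold changes of -0.61, -0.47, -0.45, -0.41 and -0.41 with overlapping groups. TOP2A, CDK1 and MKI67, the gene of the Ki67 antigen, had log2 fold changes of -0.34, -0.35 and -0.11. In these 3 genes 5R held the lowest control value, for example 22.1 FPKM in MKI67 against 27.4 to 30.01 FPKM in the other controls.

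Of 15 cyclin D, CDK and CDK inhibitor genes, 3 were lower at an unadjusted p under 0.05 and these 3, CCND1 described above, CDK2 and CDKN1A, did not overlap. Without 5R both counts were 5, and without 19R or 2L 2 genes were higher, against 0 as given. CDK2, the partner of cyclin E, had 14.5, 13.3, 14.5 and 18.1 FPKM in V tumors, against 18.1, 22.4, 19.1 and 19.8 FPKM in control tumors, with 19R equal to the lowest control at this rounding (log2 fold change -0.39 ± 0.10 SE, adjusted p = 0.148). CDKN1A, which encodes the inhibitor p21, had 6.45, 7.87, 7.06 and 8.55 FPKM in V tumors, against 8.94, 10.6, 10.8 and 9.66 FPKM in control tumors, so this inhibitor was lower too (log2 fold change -0.40 ± 0.15 SE, adjusted p = 0.228). CDKN1B, which encodes p27, had a log2 fold change of -0.08, and CDK4, CDK6, CCND3 and the pocket protein gene RBL2 had -0.09, -0.16, 0.21 and 0.14, all with overlap.

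The clustered histone genes, expressed during S phase, had the highest share of lower genes among the lists. Of 59 measured genes, 45 were lower at an unadjusted p under 0.05 (76.3%) and 1 was higher, 20 had every V tumor below every control tumor (33.9%), and the median log2 fold change was -0.56. The count of 45 was 22 without the V mouse 16. The list mean was -0.54, -0.67, -0.67 and -0.09 in V tumors against -0.17, 0.12, -0.02 and 0.07 in control tumors. In contrast to the cell cycle lists, 5R was not low here. Without 19R, 46 of the 59 genes had every V tumor below every control tumor, against 6.51% of all genes in that setting, and 16 passed the adjusted test, against 0.958% of all genes lower.

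HIST1H4H, a histone H4 gene (chr6:26277837-26285866), had 348, 297, 319.8 and 421 FPKM in V tumors, against 461, 704, 559.5 and 642 FPKM in control tumors (log2 fold change -0.77 ± 0.16 SE, adjusted p = 0.13). HIST1H2BB, a histone H2B gene, had 132, 116, 99.3 and 189.9 FPKM in V tumors, against 204, 287, 225 and 215 FPKM in control tumors, and HIST2H2AB, a histone H2A gene, had 126, 117, 140.0 and 177 FPKM in V tumors, against 204, 219, 255 and 237 FPKM in control tumors. In all 3 genes 19R was the highest V tumor and stayed below every control. HIST1H4B, HIST1H4E, HIST1H4F and HIST1H2AB had log2 fold changes of -0.78, -0.56, -0.86 and -0.78, each without overlap. Copies of a histone gene are nearly identical, so reads may be split between them and the single genes are uncertain. Their RNA lacks a poly(A) tail and is measured here because libraries were made from total RNA after removal of ribosomal RNA.

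Promoters of cell cycle and histone genes are known to carry short binding motifs of E2F, NF-Y and OCT1. The 250 bases before the start site were taken from RefSeq on GRCh38.p14, for the 9766 of 12834 genes with an entry. Motifs were searched on both strands. CCAAT, bound by NF-Y, was in 33% of all 27305 promoters and in 31 of 49 G1/S, 40 of 59 G2/M and 42 of 48 histone promoters. TTTGAA, the core of the cell cycle homology region (CHR) of mitotic genes, was in 13.6% of all and in 30 of 59 G2/M promoters. TTTGGCGC and TTTCCCGC, forms of the E2F site, were in 0.553% and 1.42% of all, and in 8 and 9 of 49 G1/S promoters. ATTTGCAT, the octamer bound by OCT1, was in 1.66% of all and in 19 of 48 histone promoters, and was added after the values were seen. To show these elements in place, the promoters of E2F1 (chr20:33686386-33686635, minus strand), PLK1 (chr16:23678639-23678888, plus strand) and HIST1H2BB (chr6:26043714-26043963, minus strand) are printed with matches in capitals.
E2F1: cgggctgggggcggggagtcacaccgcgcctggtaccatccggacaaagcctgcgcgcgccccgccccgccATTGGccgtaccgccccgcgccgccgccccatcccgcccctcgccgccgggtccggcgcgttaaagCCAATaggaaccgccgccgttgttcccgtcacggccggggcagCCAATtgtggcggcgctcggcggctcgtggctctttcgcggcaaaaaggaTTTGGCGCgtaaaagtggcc
PLK1: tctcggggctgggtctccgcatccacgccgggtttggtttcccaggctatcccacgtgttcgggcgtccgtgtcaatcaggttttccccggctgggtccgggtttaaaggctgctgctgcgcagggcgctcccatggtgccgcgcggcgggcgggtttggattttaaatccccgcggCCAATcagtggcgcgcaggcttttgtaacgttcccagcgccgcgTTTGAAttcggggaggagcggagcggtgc
HIST1H2BB: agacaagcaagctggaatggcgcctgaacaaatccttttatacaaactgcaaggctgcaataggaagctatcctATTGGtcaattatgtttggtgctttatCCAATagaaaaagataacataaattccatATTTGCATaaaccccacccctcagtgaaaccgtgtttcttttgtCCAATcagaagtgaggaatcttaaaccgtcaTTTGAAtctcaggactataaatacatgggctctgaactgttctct
In E2F1 the capitals mark CCAAT on either strand, 179, 113 and 70 bases before the start, and TTTGGCGC at 20. In PLK1 they mark CCAAT at 73 and TTTGAA at 29. In HIST1H2BB they mark CCAAT on either strand at 176, 149 and 76, the octamer at 120 and TTTGAA at 45.

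Genes with a motif were set beside all genes with a promoter entry, of which 8.6% were lower and 7.73% higher in V at an unadjusted p under 0.05. Of 90 genes with TTTGGCGC, among them 8 of the G1/S genes above, 15.6% were lower and 3.33% higher. Of 219 with TTTCCCGC, the other E2F form, among them 9 of the G1/S genes, 10.5% were lower and 6.85% higher. Of 866 with TTTGAA, among them 30 G2/M and 18 histone genes, 10.5% were lower and 10.2% higher. Of 130 genes with the octamer, among them 19 of the histone genes above, 17.7% were lower and 7.69% higher. Of 296 genes with TGACGTCA, the cyclic AMP response element, 14.5% were lower and 5.74% higher. Among these 296 were 7 histone, 4 G1/S and 4 G2/M genes of the lists above. For CCAAT, in 3525 genes, among them 31 G1/S, 40 G2/M and 42 histone genes of the lists above, the shares were 10.4% and 6.92%. The AP-1 site TGAGTCA (251 genes, 4.16% of all promoters) had 10.4% lower and 5.98% higher, and the ETS site CCGGAAGT (737 genes, 3.64% of all promoters) had 8.82% lower and 4.75% higher. A match is a description of the sequence and not a bound site.

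**Figure D3:**
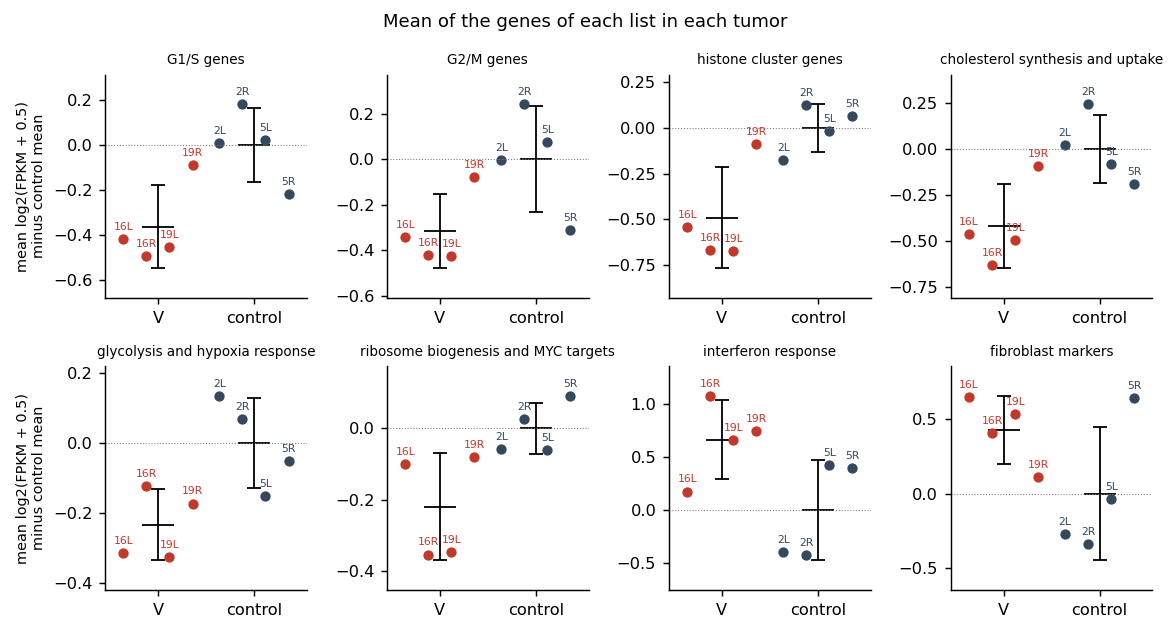
Mean of log2(FPKM + 0.5) over the genes of 8 lists, minus the control mean (vertical axes), in each V tumor (red) and control tumor (dark blue), with group mean and SD. In G1/S genes, G2/M genes and cholesterol genes the V tumors 16L, 16R and 19L lie below all controls and 19R does not, and in the interferon list both flanks of control mouse 2 are low and both flanks of control mouse 5 lie within the V range.

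The genes of cholesterol synthesis and uptake were lower in V tumors as a group. SREBP-2 switches on the enzymes of cholesterol synthesis and the uptake of sterols when sterols are scarce. Of 27 measured genes, 17 were lower at an unadjusted p under 0.05 (63%) and 0 higher, 25 had a negative fold change, and the median log2 fold change was -0.43. The count of 17 was 6 without the control mouse 2 and 9 without the V mouse 16. INSIG1, which holds SREBP in the endoplasmic reticulum and is itself a target, had 12.6, 12.5, 15.8 and 20.4 FPKM in V tumors, against 30.9, 37.8, 23.5 and 19.5 FPKM in control tumors. Here 5R was slightly below 19R, and both mice of the V group were below control mouse 2 (log2 fold change -0.83 ± 0.20 SE, adjusted p = 0.141).

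HMGCS1, the HMG-CoA synthase of the pathway, had 24.5, 20.5, 23.3 and 36.7 FPKM in V tumors, against 48.9, 71.7, 50.04 and 25.7 FPKM in control tumors. Control tumor 5R lay inside the V range and the other 3 controls above all V tumors (log2 fold change -0.84 ± 0.24 SE, adjusted p = 0.154). FDFT1, squalene synthase, had 35.1, 28.3, 35.3 and 41.8 FPKM in V tumors, against 48.2, 55.8, 44.1 and 44.8 FPKM in control tumors and no overlap (log2 fold change -0.46 ± 0.10 SE, adjusted p = 0.13). IDI1, SQLE and FDPS had log2 fold changes of -0.56, -0.47 and -0.47, and SREBF2, which encodes SREBP-2, had -0.34. With all tumors 2 of the 27 genes had every V tumor below every control tumor (7.41%, against 1.99% of all genes). Without 5R this count was 12 (6.97% of all genes in that setting), and 8 passed the adjusted test, against 1.43% of all genes lower. Without 19R it was 11 (6.51%), and 5 passed, against 0.958% of all genes lower. The motif TCACNCCAC, with N any base, is a form of the site bound by SREBP and was also searched after the values were seen. It was in 0.875% of all promoters and in 1 of 21 promoters of the cholesterol list. Of the 80 kept genes that hold it, 10% were lower and 6.25% higher, against 8.6% and 7.73% of all genes with an entry.

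In fatty acid synthesis 2 of 11 genes were lower at an unadjusted p under 0.05, SCD and FADS1, the desaturases. SCD had 24.2, 22.7, 27.7 and 37.5 FPKM in V tumors, against 42.1, 53.04, 38.8 and 36.1 FPKM in control tumors, with 5R between 19L and 19R (log2 fold change -0.60 ± 0.16 SE, adjusted p = 0.148). FADS1 had a log2 fold change of -0.59, and FASN, the fatty acid synthase, had -0.20 with full overlap. The count of 2 was 5 without 19R and 4 without 5R.

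Genes of glycolysis were lower in V tumors by small amounts. Of 41 genes of glycolysis and the hypoxia response, 17 were lower (41.5%) and 2 higher at an unadjusted p under 0.05, and the median log2 fold change was -0.22. All 20 glycolysis genes had a negative fold change, with 11 at an unadjusted p under 0.05. The count of 17 was 9 without 19L and 11 without 2L. PGK1, phosphoglycerate kinase, had 193, 179, 145 and 177 FPKM in V tumors, against 223, 249, 213 and 240.1 FPKM in control tumors, with every V tumor below every control (log2 fold change -0.42 ± 0.10 SE, adjusted p = 0.141). ALDOC, an aldolase, had 12.1, 15.1, 9.82 and 14.6 FPKM in V tumors, against 18.1, 25.03, 15.4 and 18.5 FPKM in control tumors (log2 fold change -0.56 ± 0.15 SE, adjusted p = 0.146). SLC2A1, the glucose transporter GLUT1, had a log2 fold change of -0.41, LDHA, lactate dehydrogenase, had -0.22, and HK2, SLC2A3 and PDK1 had -0.10, -0.15 and -0.27, all with overlap.

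Of the targets of hypoxia, VEGFA, the vascular growth factor, had 4.02, 4.96, 4.699 and 5.33 FPKM in V tumors, against 12.9, 7.94, 6.23 and 6.58 FPKM in control tumors. The groups did not overlap, with 2L far above the other controls (log2 fold change -0.71 ± 0.24 SE, adjusted p = 0.185). CA9 and ADM had log2 fold changes of -0.77 and -0.65, and in ADM both flanks of control mouse 2 were high, at 7.01 and 6.69 FPKM, against 2.46 and 3.04 FPKM in mouse 5. TXNIP, which is induced by glucose and restrains its uptake, went the other way, with 109, 124, 84.97 and 90.2 FPKM in V tumors, against 60.2, 76.9, 58.5 and 85.3 FPKM in control tumors. Control tumor 5R slightly exceeded 19L (log2 fold change 0.54 ± 0.18 SE, adjusted p = 0.185).

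The interferon-stimulated genes were higher in V tumors, and they also differed between the control mice. Interferon binds its receptor, a transcription factor complex that holds IRF9 enters the nucleus, and the interferon-stimulated genes are switched on. Of 46 measured genes, 35 were higher in V at an unadjusted p under 0.05 (76.1%, against 7.98% of all genes) and 0 lower, and the median log2 fold change was 0.65. No member had all V tumors above all control tumors (0%, against 1.79% of all genes). The list mean was 0.17, 1.07, 0.65 and 0.74 in V tumors, against -0.39, -0.43, 0.42 and 0.40 in control tumors. Control mouse 5 thus lay within the range of the V tumors and above 16L, and control mouse 2 lay far below.

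The count of 35 was 22 without 16R, 22 without 2L, 21 without 2R, 20 without the V mouse 19, and 7 without the control mouse 2. The median of 0.65 was 0.24 without control mouse 2 and 0.99 without control mouse 5. The count of 0 genes with every V tumor above every control tumor was 25 without 16L, where 3.89% of all genes did so, 8 without 5L (3.4%), 12 without 5R (9.65%) and 41 without control mouse 5 (14.4%). Without 5R, 15 passed the adjusted test, against 2.07% of all genes higher in that setting. Whether the difference between the control mice and that between the groups have the same source was not tested, and with 2 mice a group the host and the treatment cannot be told apart for these genes.

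IFIT1, an RNA-binding effector (chr10:91152303-91166244), had 38.2, 114, 64.96 and 69.8 FPKM in V tumors, against 15.4, 16.8, 60.3 and 39.00 FPKM in control tumors. The V tumor 16L was below both flanks of control mouse 5, and the other V tumors were above every control (log2 fold change 1.24 ± 0.39 SE, adjusted p = 0.169). IFITM1, a membrane restriction factor, had 86.6, 179, 113 and 154 FPKM in V tumors, against 49.9, 41.1, 64.97 and 108 FPKM in control tumors (log2 fold change 1.05 ± 0.26 SE, adjusted p = 0.141). IFIT2, PARP9, ISG15 and IRF9 had log2 fold changes of 0.85, 0.65, 0.89 and 0.52, all with overlap.

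Genes of antigen presentation on MHC class I had smaller differences. Of 16 genes, 5 were higher (31.2%) and 1 lower at an unadjusted p under 0.05, with a median of 0.19, or 0.35 without 5R. The count of 5 was 9 without 5R and 2 or 3 without 16R, 19R, 2R or 5L. B2M, the light chain, had 1872, 1757, 1325 and 1624 FPKM in V tumors, against 1049, 1105, 1512 and 1552 FPKM in control tumors. Both flanks of control mouse 2 were lowest (log2 fold change 0.34 ± 0.15 SE, adjusted p = 0.278). HLA-C, HLA-F and ERAP1 had log2 fold changes of 0.44, 0.59 and 0.22, and TAP1, a peptide transporter, had 0.30 with 5R the highest of the 8 tumors.

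The motif of TTTC, any 2 bases and TTTC, which covers the interferon-stimulated response element (ISRE), was searched after the values were seen. It was in 3.07% of all promoters and in 20 of the 35 interferon genes with a promoter entry. Among all 250 kept genes that hold it, 18.4% were higher in V and 4% lower at an unadjusted p under 0.05, against 7.73% and 8.6% of all genes with an entry. The interferon genes are among these 250. GGAATTTCC, a form of the site bound by NF-kB, was in 0.428% of all promoters and in 7 of 13 promoters of the cytokine list described next, and it too was added after the values were seen. Of the 37 kept genes that hold it, among them 7 of the cytokine list, 16.2% were higher and 8.11% lower. To show both elements, the promoters of IFIT1 (chr10:89392373-89392622, plus strand), CXCL1 (chr4:73869143-73869392, plus strand) and IL8, now CXCL8 (chr4:73740319-73740568, plus strand), are printed.
IFIT1: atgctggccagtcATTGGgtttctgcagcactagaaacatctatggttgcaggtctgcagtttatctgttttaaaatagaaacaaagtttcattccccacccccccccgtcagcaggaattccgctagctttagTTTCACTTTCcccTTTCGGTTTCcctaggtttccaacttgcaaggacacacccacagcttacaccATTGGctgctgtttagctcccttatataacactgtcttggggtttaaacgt
CXCL1: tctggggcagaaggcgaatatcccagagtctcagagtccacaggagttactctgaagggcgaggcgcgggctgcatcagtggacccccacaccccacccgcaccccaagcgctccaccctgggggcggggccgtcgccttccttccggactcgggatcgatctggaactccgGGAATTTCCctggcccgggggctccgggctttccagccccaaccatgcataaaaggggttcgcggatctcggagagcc
IL8: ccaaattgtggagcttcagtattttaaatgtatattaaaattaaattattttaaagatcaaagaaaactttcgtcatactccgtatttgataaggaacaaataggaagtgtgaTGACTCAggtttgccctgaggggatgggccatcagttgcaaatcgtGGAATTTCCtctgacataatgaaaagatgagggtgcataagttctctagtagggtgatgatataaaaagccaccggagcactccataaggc
In IFIT1 the capitals mark 2 ISRE matches, 116 and 103 bases before the start, and CCAAT on the opposite strand at 237 and 51. In CXCL1 they mark the NF-kB motif at 78. In IL8 they mark the AP-1 site on the opposite strand at 137 and the NF-kB motif at 91.

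Of 18 measured cytokines and NF-kB genes, 4 were lower at an unadjusted p under 0.05 (22.2%) and 0 higher, and 3 had every V tumor below every control tumor (16.7%, against 1.99% of all genes), or 5 without 19R (6.51% of all genes). They include LIF, described above. CXCL1, a chemokine for neutrophils (chr4:74735110-74737025), had 4.75, 5.83, 5.19 and 6.31 FPKM in V tumors, against 8.82, 9.801, 9.43 and 7.61 FPKM in control tumors. All V tumors were below all control tumors, and the V level was 0.639 times that of control (log2 fold change -0.65 ± 0.12 SE, adjusted p = 0.112). IL8, a chemokine of the same family, had 7.57, 9.59, 9.600 and 6.496 FPKM in V tumors, against 19.3, 11.98, 18.3 and 12.6 FPKM in control tumors, again without overlap (log2 fold change -0.85 ± 0.26 SE, adjusted p = 0.168). RELB, an NF-kB subunit, had log2 fold changes of -0.41 with overlap, and NFKBIA, the inhibitor that NF-kB induces, had -0.07. IL6 was at most 0.264 FPKM and PTGS2 at most 1.17 FPKM in the 8 tumors.

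Genes of ribosome production and protein folding were lower by small amounts. Of 35 genes of ribosome biogenesis and MYC targets, 16 were lower (45.7%) and 0 higher at an unadjusted p under 0.05, 5 without overlap, and the median log2 fold change was -0.23. The count of 16 was 9 without 16R, and the count of 5 was 8 without 16L (3.86% of all genes), 19R (6.51%) or 2L (4.22%) and 9 without 5R (6.97%). DKC1, the pseudouridine synthase dyskerin (chrX:153991017-154005964), had 58.5, 51.6, 53.5 and 60.2 FPKM in V tumors, against 69.6, 79.2, 75.96 and 69.6 FPKM in control tumors. Of the lower genes that are not short RNAs it had the smallest p (log2 fold change -0.39 ± 0.07 SE, adjusted p = 0.105). NCL, nucleolin, had 229, 224, 210.0 and 218 FPKM in V tumors, against 278, 284, 269 and 246 FPKM in control tumors (log2 fold change -0.29 ± 0.06 SE, adjusted p = 0.13). TSR1, ODC1 and NOP56 had log2 fold changes of -0.32, -0.45 and -0.33, of which NOP56 overlapped, and POLR1B, a subunit of RNA polymerase I, had -0.08. The 77 measured ribosomal protein genes had a median of -0.06, with 1 lower and 0 higher at an unadjusted p under 0.05. Without 16L the median was -0.17, 21 were lower and 18 had every V tumor below every control tumor (3.86% of all genes did), and without 19L the median was 0.04.

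Of 15 heat shock genes, 9 were lower (60%) and 0 higher, 2 without overlap, with a median of -0.28. The count of 9 was 5 without 5L, and the count of 2 was 7 without 19R (6.51% of all genes) and 6 without 2L (4.22%) or 5R (6.97%). HSPA1A, the inducible HSP70, had 6.28, 5.64, 6.65 and 10.02 FPKM in V tumors, against 8.97, 14.4, 13.2 and 11.99 FPKM in control tumors, with 19R above 2L (log2 fold change -0.74 ± 0.17 SE, adjusted p = 0.139). Its near-identical copy HSPA1B had a log2 fold change of -0.60, and reads cannot be assigned between them with certainty. HSPA9, the mitochondrial HSP70, had 194, 185, 159 and 199.7 FPKM in V tumors, against 225, 244, 230.2 and 226 FPKM in control tumors and no overlap (log2 fold change -0.33 ± 0.08 SE, adjusted p = 0.13). HSPH1 had a log2 fold change of -0.08. Of 26 genes of ATF4 and the amino acid response, 9 were lower at an unadjusted p under 0.05 (34.6%), a count that was 1 without 19L, 3 without 16R, 3 without 2R, 4 without 5L and 4 without 5R. MTHFD2, a mitochondrial folate enzyme, had log2 fold changes of -0.54, ATF4 itself -0.23 and ASNS -0.07, all with overlap. Of 17 chaperones of the endoplasmic reticulum 2 were lower and 1 higher, with 4 higher without 5R and 1 lower without any single tumor other than 16L or 5L. Of 34 genes of oxidative phosphorylation 4 were lower (11.8%) and 0 higher, a count that was 0 without 16R or 19L, 9 without 16L, 7 without 2L and 2 without 2R or 5R.

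**Figure D4:**
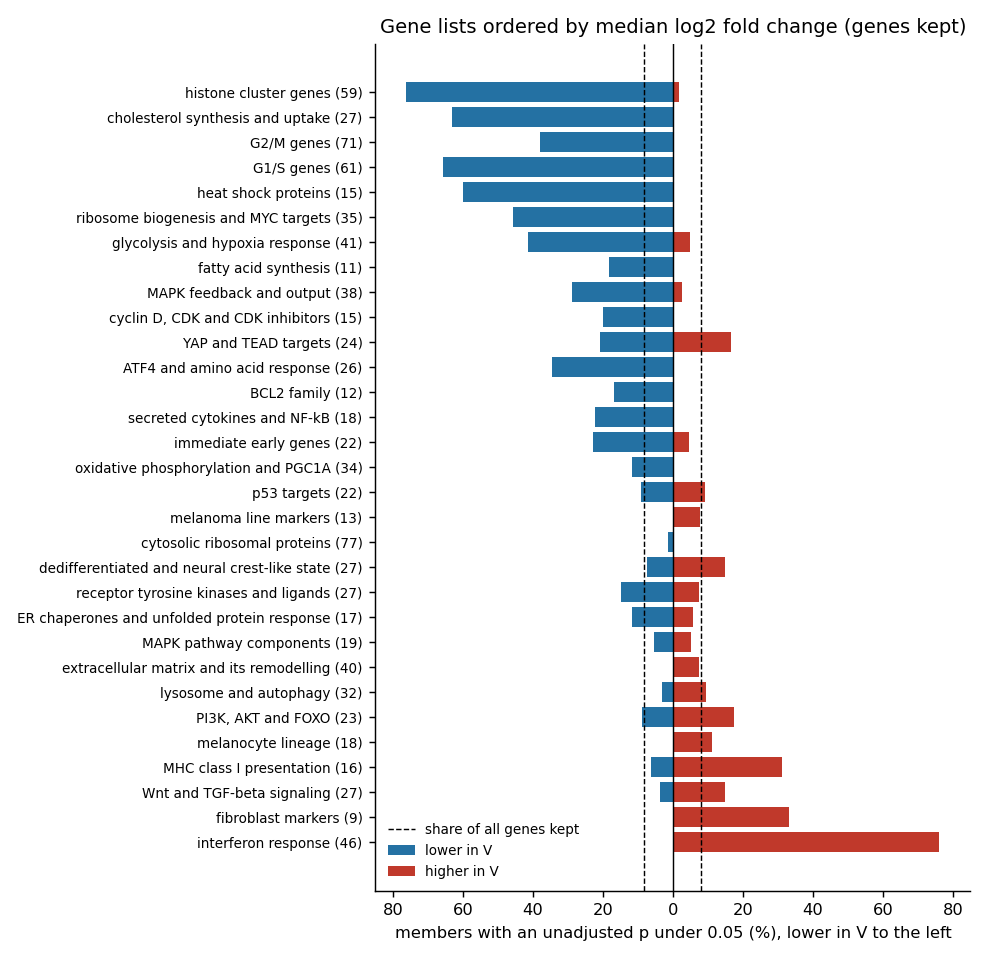
Share of the measured members of each gene list that were lower in V (blue, to the left) or higher in V (red, to the right) at an unadjusted p under 0.05, in percent, with the number of genes kept in parentheses and lists ordered from the lowest to the highest median log2 fold change. The dashed lines mark the shares of all 12834 genes, 8.17% lower and 7.98% higher, and histone genes (76.3% lower) and interferon genes (76.1% higher) lie at the ends.

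Of 12 BCL2 family genes, 2 were lower and 0 higher at an unadjusted p under 0.05. The count of 2 was 0 without 5L, 1 without 16L, 16R, 19L or 5R and 3 without 2L. MCL1, an anti-apoptotic member, had 163, 205, 192 and 207 FPKM in V tumors, against 217, 219, 299 and 259.7 FPKM in control tumors. Its groups did not overlap (log2 fold change -0.37 ± 0.14 SE, adjusted p = 0.223). BCL2L1 and BCL2A1 had log2 fold changes of -0.33 and -0.48, and the pro-apoptotic BCL2L11 (BIM), BBC3 (PUMA) and PMAIP1 (NOXA) had 0.24, 0.18 and -0.16, all with overlap. BMF was under 1 FPKM in all 8 tumors, at 0.451, 0.409, 0.286 and 0.298 FPKM in V tumors against 0.203, 0.177, 0.195 and 0.275 FPKM in control tumors, and was not tested. Of 22 p53 targets, 2 were higher and 2 lower. The lower count was 5 without 19R, 3 without 2L or 5R and 1 without 16R, 19L or 5L, and the higher count was 3 without 5R and 1 without 16R, 19L, 2L, 2R or 5L.

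Of 23 PI3K, AKT and FOXO genes, 4 were higher (17.4%) and 2 lower at an unadjusted p under 0.05. The count of 4 was 2 without 16L, 16R, 2R or 5L, and the 2 lower were 0 without 16R and 1 without any other single tumor except 19R. SESN3, a FOXO target that restrains mTOR complex 1 (chr11:94898677-94965705), had 52.4, 65.9, 48.5 and 41.5 FPKM in V tumors, against 38.3, 28.1, 25.4 and 39.5 FPKM in control tumors and no overlap (log2 fold change 0.66 ± 0.20 SE, adjusted p = 0.165). PIK3R1, the regulatory subunit of PI3K, had 12.3, 14.02, 13.5 and 10.7 FPKM in V tumors, against 10.2, 8.37, 10.6 and 10.6 FPKM in control tumors, with the lowest V tumor just above the highest control (log2 fold change 0.33 ± 0.09 SE, adjusted p = 0.154). FOXO1, FOXO3 and KLF9 had log2 fold changes of 0.31, 0.26 and 0.40, and IRS2 had 0.11. Of 32 lysosome and autophagy genes 3 were higher (9.38%) and 1 lower. Without 5R, in which this list had its highest mean, 13 were higher, against 13.7% of all genes in that setting. MAP1LC3B, the LC3 of autophagosomes, had 23.8, 24.5, 27.3 and 24.7 FPKM in V tumors, against 19.3, 17.7, 17.5 and 22.5 FPKM in control tumors and no overlap (log2 fold change 0.38 ± 0.09 SE, adjusted p = 0.13). LAMP2, a lysosomal membrane protein, had a log2 fold change of 0.17 without overlap, and SQSTM1, an autophagy receptor, had 0.00.

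Of 18 measured genes of the melanocyte lineage, 2 were higher and 0 lower at an unadjusted p under 0.05, and 15 had a positive fold change with a median of 0.15. The count of 2 was 6 without 16L, 5 without 2L, 4 without 5R, 3 without 19L or 19R and 1 without 16R or 5L. MITF, the lineage factor, had 7.45, 6.88, 10.98 and 9.26 FPKM in V tumors, against 7.06, 8.57, 9.28 and 8.16 FPKM in control tumors with full overlap (log2 fold change 0.04 ± 0.14 SE, adjusted p = 0.914). SOX10 and MLANA had log2 fold changes of 0.12 and 0.21. TFAP2A, a neural crest factor, had 2.303, 2.65, 1.97 and 1.96 FPKM in V tumors, against 1.21, 1.24, 1.03 and 1.99 FPKM in control tumors, with 5R just above 19L and 19R (log2 fold change 0.56 ± 0.18 SE, adjusted p = 0.173). The pigment enzyme gene DCT was listed at 0 in all 8 tumors, and TYR was at most 0.305 FPKM.

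In the dedifferentiated state 4 of 27 genes were higher and 2 lower at an unadjusted p under 0.05, with 7 higher without 5R and 2 higher without 16L, 16R, 2R or 5L. The count of 2 lower was 5 without 19R, 1 without 2L and 0 without 16L, 16R or 2R. AXL, a receptor of this state, had 6.59, 7.26, 8.83 and 19.4 FPKM in V tumors, against 17.4, 32.97, 19.4 and 7.65 FPKM in control tumors. The V tumors 16L, 16R and 19L and the control tumor 5R were low, 19R was as high as the other controls, and the SE was 0.38 for a log2 fold change of -0.81. SOX9 and EGFR had log2 fold changes of -0.54 and -0.48 with overlap. CDH19 and A2M had log2 fold changes of 0.65 and 0.80. Among ligands and receptors of tyrosine kinases, VEGFC and PDGFA had log2 fold changes of -0.93 and -0.73 with overlap, ERBB3 and IGF1R 0.21 and 0.18, and NRG1 had 0.882, 1.099, 1.61 and 1.84 FPKM in V tumors, against 1.37, 10.6, 3.01 and 0.352 FPKM in control tumors, high in 2R alone.

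Of 24 YAP and TEAD targets, 5 were lower (20.8%) and 4 higher (16.7%) at an unadjusted p under 0.05. The count of 5 was 2 without 16L or 2R, 3 without 16R, 19L or 5L, 8 without 5R and 9 without 19R, and it was 0 without the V mouse 16. The count of 4 was 2 without 16R, 19L or 2R. AMOTL2 and CYR61 had log2 fold changes of -1.002 and -0.71 with overlap. In Wnt and TGF-beta signaling, AXIN2, a target and brake of beta-catenin, had 2.02, 2.49, 2.22 and 2.71 FPKM in V tumors, against 1.37, 1.61, 1.21 and 2.01 FPKM in control tumors. The groups did not overlap, by a narrow margin (log2 fold change 0.49 ± 0.17 SE, adjusted p = 0.189). DKK1, a secreted Wnt antagonist, had 3.99, 6.71, 4.46 and 10.5 FPKM in V tumors, against 13.5, 18.6, 12.8 and 5.73 FPKM in control tumors, in which 5R lay among the V tumors (log2 fold change -0.91 ± 0.34 SE, adjusted p = 0.22).

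By the rule for named genes, the largest higher differences without overlap included those of SPP1 (log2 fold change 0.90), PDE5A (0.79), KLRC4 (0.70), PGM2L1 (0.69) and LPAR6 (0.68). SPP1, which encodes osteopontin, had 53.04, 105, 58.7 and 58.8 FPKM in V tumors, against 32.3, 29.9, 36.5 and 43.4 FPKM in control tumors, with 16R far above the rest (log2 fold change 0.90 ± 0.31 SE, adjusted p = 0.189). TLR3, a sensor of double-stranded RNA, had 7.33, 8.399, 7.73 and 7.01 FPKM in V tumors, against 4.83, 3.81, 5.73 and 4.31 FPKM in control tumors (log2 fold change 0.66 ± 0.11 SE, adjusted p = 0.105). FAM214A had 10.8, 13.2, 13.9 and 10.3 FPKM in V tumors, against 7.91, 6.97, 8.96 and 7.396 FPKM in control tumors, and with TLR3 it shared the smallest adjusted p of the higher genes (log2 fold change 0.59 ± 0.10 SE, adjusted p = 0.105). AHR, the aryl hydrocarbon receptor, had 133, 140.4, 129.8 and 115 FPKM in V tumors, against 86.4, 69.1, 95.8 and 107 FPKM in control tumors (log2 fold change 0.54 ± 0.11 SE, adjusted p = 0.13). IFI16, a DNA sensor that interferon induces, had 192, 266, 213 and 178 FPKM in V tumors, against 139, 115, 168 and 152 FPKM in control tumors. The rule that named these 4 genes took only genes without overlap. Their adjusted p without 5R, the setting with the most calls, were 0.0249, 0.0249, 0.0126 and 0.0437. With all tumors they were 0.105, 0.105, 0.13 and 0.139. Over all alternatives, the highest adjusted p by limma was 0.451 for each of these genes.

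Of the lower genes, GRPEL1, a cochaperone of mitochondrial protein import, had 34.8, 35.9, 33.6 and 43.5 FPKM in V tumors, against 46.6, 50.9, 51.3 and 57.5 FPKM in control tumors (log2 fold change -0.48 ± 0.09 SE, adjusted p = 0.106). MRPS5, of the mitochondrial ribosome, had 18.99, 18.4, 18.3 and 22.8 FPKM in V tumors, against 24.3, 28.6, 27.1 and 26.04 FPKM in control tumors, and CENPW, of the kinetochore, had 21.2, 23.4, 19.7 and 34.3 FPKM in V tumors, against 44.2, 55.5, 41.5 and 34.6 FPKM in control tumors. In all 3 genes 19R was the highest V tumor, below the lowest control as the rule required. UTP18 of the small subunit processome had a log2 fold change of -0.33. KLRC4 has close paralogs and HNRNPA1P10 and MKRN9P are pseudogenes, with log2 fold changes of 0.70, -0.90 and 0.53, so their reads may come from other copies. MME, which encodes neprilysin, was 1 of the 3 genes with an absolute log2 fold change of at least 2 that are not short RNAs and was chosen after its values were seen. It had 0.676, 0.777, 0.755 and 2.01 FPKM in V tumors, against 16.5, 54.9, 4.49 and 0.437 FPKM in control tumors (log2 fold change -2.47 ± 0.84 SE, adjusted p = 0.186). The high values were all in control mouse 2 and in 5L, and 5R was the lowest of the 8 tumors.

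**Figure D5:**
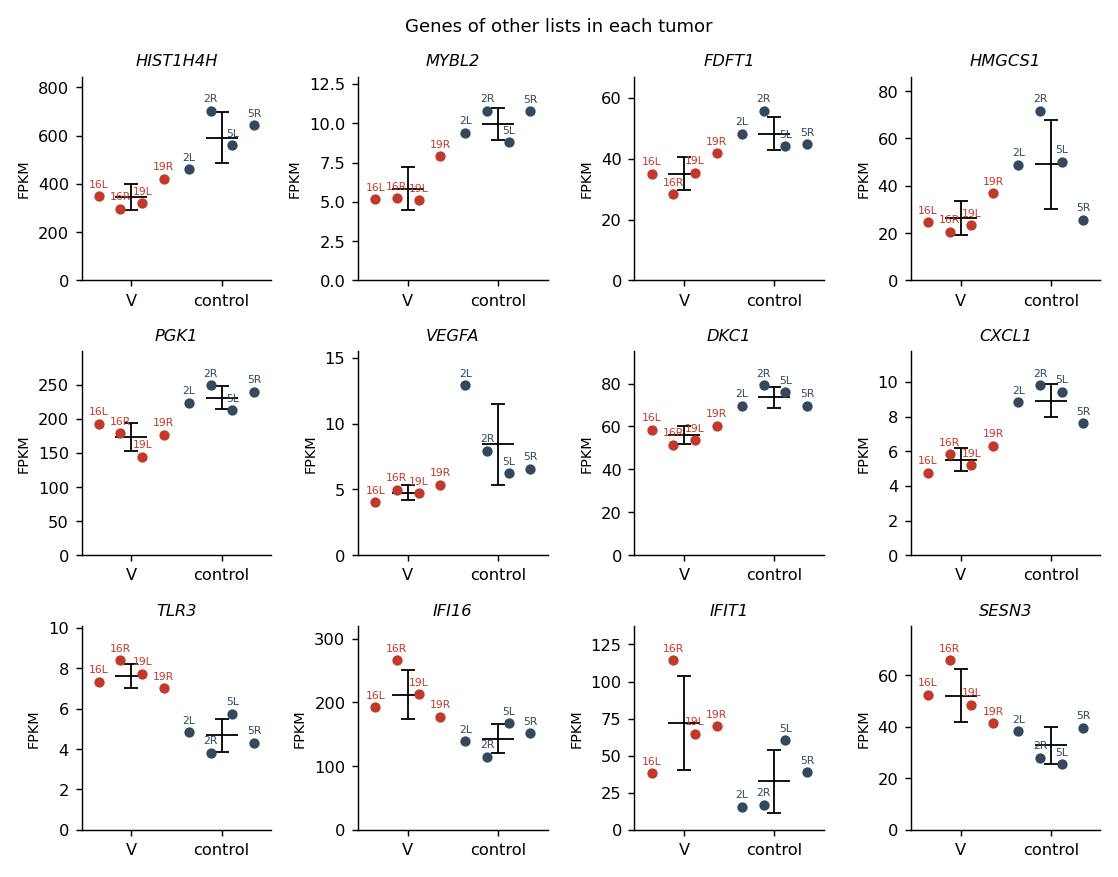
FPKM of 12 genes of other lists (vertical axes, from 0) in the 4 V tumors (red) and the 4 control tumors (dark blue), labelled by tumor, with mean and SD. HIST1H4H, MYBL2, FDFT1, PGK1, VEGFA, DKC1 and CXCL1 have every V tumor below every control tumor, TLR3, IFI16 and SESN3 have every V tumor above, and HMGCS1 and IFIT1 overlap.

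Most markers of other cell types outside the fibroblast list did not pass the filter. None of 10 endothelial and none of 6 adipocyte markers passed, against 3 of 10 myeloid and 1 of 11 lymphoid markers. In the myeloid list CD163 and MRC1 were listed at 0 in all 8 tumors, as were CD3E, MS4A1 and GNLY in the lymphoid list. Reads were aligned to the human genome and the mouse supplied the stroma, so low values do not show that a cell type was scarce. Of 11 fibroblast markers 9 were measured and 3 were higher in V at an unadjusted p under 0.05, with a median log2 fold change of 0.41. Without 5R 6 were higher and the median was 0.70, while 0 were higher without 16L, without the V mouse 16 or without the control mouse 2, 1 without 2L or 2R and 2 without 16R, 19R or 5L. They summed to 66.6 to 115 FPKM in V tumors (median 86.6) and 47.1 to 119 FPKM in control tumors (median 53.2), with the highest sum in 5R. The 10 myeloid markers summed to 21.4 to 29.4 FPKM in V tumors and 20.5 to 26.95 FPKM in control tumors, and the 7 skeletal muscle markers to 2.75 to 18.6 FPKM in V tumors and 2.17 to 2.86 FPKM in control tumors. DCN, decorin, had 14.7, 7.505, 7.54 and 4.76 FPKM in V tumors, against 1.45, 2.12, 3.55 and 10.8 FPKM in control tumors, and COL1A1 had 15.1, 11.8, 31.8 and 14.4 FPKM in V tumors, against 11.6, 9.21, 7.07 and 31.6 FPKM in control tumors, with 19L and 5R the highest. In tumor RNA, fewer cells of a type and less RNA per cell cannot be told apart, and the part of these markers in the gene groups above was not tested. Of 40 matrix genes, 3 were higher (7.5% of the list) and 0 lower. Without 5R 15 were higher (13.7% of all genes in that setting), without 19R 6 (8.94%) and without 16L, 2R or 5L 1. VCAN and MGP had log2 fold changes of 0.54 and 0.88, and FN1 had 206, 174, 217 and 158 FPKM in V tumors, against 141, 87.7, 134 and 346 FPKM in control tumors, with 5R far above all others.

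The tumors treated with JQ1 alone and with both drugs were set against the same control tumors, so the 3 comparisons are not independent, and the differences between them were not tested. In J against control 0 of 12834 genes passed the adjusted test by limma, with 1070 at an unadjusted p under 0.05, and in J+V against control 4815 passed (37.5%), 2073 higher and 2742 lower. The median log2 fold change of the histone list was -0.56 in V, -0.15 in J and -1.64 in J+V. For G1/S genes it was -0.36, -0.10 and -0.99, for G2/M genes -0.36, -0.12 and -1.17, and for cholesterol genes -0.43, -0.20 and -0.87. For the interferon list it was 0.65 in V, -0.39 in J and -0.20 in J+V. For the glycolysis and hypoxia list it was -0.22 in V, -0.19 in J and -0.42 in J+V, so V and J were close there. For fibroblast markers it was 0.41, 0.22 and 0.44. The MAPK feedback and output list had -0.17, 0.02 and -0.32. For single genes, CCND1 had log2 fold changes of -0.46 in V, 0.22 in J and -0.83 in J+V, and DUSP5 had -0.70, -0.13 and -0.32. DUSP6 had log2 fold changes of -0.31, -0.04 and -0.15, and CXCL1 -0.65, 0.00 and -0.18, so in these last 3 genes the V value was the lowest of the 3.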

How the data were processed

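RNA was measured in tumor xenografts on day 5 from rRNA-depleted total RNA (RiboZero, ScriptSeq v2). The authors aligned the reads with TopHat to hg19 and estimated levels with Cufflinks, and the deposited table holds FPKM per gene symbol. The sources used here do not give tool versions, the annotation, or whether mouse reads were removed, and mouse RNA that aligns to human genes would be counted. The depth per tumor is unknown.

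FPKM were taken as log2(FPKM + 0.5). Genes with at least 1 FPKM in at least 4 of the 8 V and control tumors were fitted with limma 3.58.1 in R 4.3.3. All 4 treatment groups were in the fit, with the mouse as a block (estimated correlation -0.0685). A negative correlation narrows the standard errors of a comparison between mice, so the block made no allowance for flanks that share a mouse. At an unadjusted p under 0.05 by limma, 1024 genes were higher and 1049 lower with the block. Without it the counts were 895 and 937, and over the mouse means 805 and 774. The standard errors and p values given here are those of the fit with the block. The p-values were adjusted by Benjamini-Hochberg over all 12834 genes at 0.05. The fold over 2, p under 0.01 and false discovery rate under 0.1 used by the study gave 0 genes in this limma fit. No other result was possible, since the smallest adjusted p by limma was 0.105. The study applied these cutoffs to read counts with another test, which was not repeated here. The paper reports genes changed both by vemurafenib alone and by the combination. The members and lists were chosen with earlier results of these data known. Named genes were the 10 higher and 10 lower with the largest fold change and the 6 higher and 6 lower with the smallest p, at a mean of at least 5 FPKM, without overlap and not short RNAs, with the key members and the 3 smallest p of each list. A few of the genes so chosen are left out of the text. Gene positions are from GENCODE on GRCh37 and promoters from RefSeq on GRCh38.p14. The alternatives were other pseudocounts, filters, scalings, blocks and samples in the fit, a flank term, robust moderation, and leaving out each tumor and mouse. The fit was tested on simulated data with known changes. The J and J+V tumors are set beside V only at the end.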

Additional observations from a re-analysis of the deposited data

Results flagged for a closer look

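Of 414 groups of 4 tumors examined, 15 (3.62%) held a tumor that stood far from the other 3 of its group, where chance gives about 1 in 20. Among V tumors, 16R had 105 FPKM of SPP1, against 53.04 to 58.8 FPKM in the others. Tumor 19R had 7.89 FPKM of MYBL2, 13.9 FPKM of ERBB3 and 2.01 FPKM of MME, against 5.09 to 5.23, 17.3 to 18.01 and 0.676 to 0.777 FPKM in the others, and 19L had 3.07 FPKM of DUSP1, against 5.14 to 5.60 FPKM.

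Among control tumors, 5R had 151 FPKM of DUSP6, against 113 to 117 FPKM in the others. It also held the highest list means of lysosome and autophagy (0.34, against -0.14 to -0.08), Wnt and TGF-beta signaling (0.18, against -0.07 to -0.06) and the melanoma line markers (0.35, against -0.17 to -0.09), on the log2 scale around the control mean. Tumor 5L had 4.31 FPKM of MYC, against 5.70 to 5.92 FPKM, and 30.4 FPKM of NF1, against 27.0 to 27.3 FPKM. Tumor 2L had 23.7 FPKM of CDKN1B, against 18.9 to 19.6 FPKM, and 18.4 FPKM of PLAUR, against 23.2 to 23.8 FPKM. Tumor 2R had 7.68 FPKM of BCL2A1, against 12.9 to 13.9 FPKM, and 8.37 FPKM of PIK3R1, against 10.2 to 10.6 FPKM.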

How the results depend on the processing

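When the pseudocount was 0.1 or 1, and with no filter, a mean of 5 FPKM or more, upper quartile or quantile scaling, no mouse block, mouse means, V and control tumors alone, a flank term or robust moderation, limma called 0 genes, and with a common sum it called 1. Without single tumors or mice it called 0 to 449, the highest without 5R. At an unadjusted p under 0.05, 629 genes were higher with a mean of at least 5 FPKM and 480 with a common sum, where 1160 were lower. Without the mouse block 895 were higher and 937 lower, and over the mouse means 805 and 774. Leaving out a tumor or mouse gave 622 to 1764 higher and 587 to 1457 lower genes. Genes without overlap numbered 603 to 3103 when a tumor or mouse was left out and 5249 over the 2 mouse means a group, since fewer values overlap less often.

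Of the list medians, those of the G1/S, histone, melanocyte, cholesterol, glycolysis, heat shock and ribosome biogenesis lists stayed within 1.5 times the reported value in every alternative, left-out tumors and mice included. That of cyclin D and CDK genes was -0.21 with a common sum, and at a mean of at least 5 FPKM that of the dedifferentiated state was 0.11 and that of the ATF4 list -0.26. With a tumor or mouse left out, medians ranged from -0.032 to 0.064 for MAPK components, from -0.34 to -0.078 for MAPK feedback and output, from -0.26 to -0.023 for immediate early genes, from -0.47 to -0.24 for G2/M genes, from -0.21 to -0.058 for cyclin D and CDK genes, from -0.081 to 0.094 for the dedifferentiated state, from -0.14 to 0.074 for receptor tyrosine kinases, from -0.29 to -0.081 for YAP and TEAD targets, from -0.16 to 0.0071 for the BCL2 family, from -0.16 to -0.019 for p53 targets, from -0.22 to -0.11 for fatty acid synthesis, from -0.17 to -0.036 for oxidative phosphorylation, from -0.006 to 0.18 for lysosome and autophagy, from 0.24 to 0.99 for interferon genes, from 0.045 to 0.45 for MHC class I, from -0.16 to -0.066 for cytokines, from -0.19 to -0.071 for the ATF4 list, from -0.056 to 0.035 for ER chaperones, from -0.17 to 0.082 for ribosomal proteins, from -0.12 to 0.30 for the matrix, from 0.035 to 0.26 for Wnt and TGF-beta, from 0.020 to 0.12 for PI3K and FOXO, from 0.090 to 0.70 for fibroblast markers, from -0.091 to 0.15 for myeloid markers and from -0.19 to 0.077 for melanoma line markers. The cause of these moves was not tested.

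Some genes turned sign. With a common sum BRAF was at -0.0079, MITF at -0.0044, SPRY2 at -0.035, SQSTM1 at -0.050 and TGFA at -0.049. With quantile scaling FOS was at -0.0072, HSPH1 at 0.0065, NRAS at 0.040 and PHLDA1 at 0.096, and with upper quartile scaling PHLDA1 was at 0.0025. As a ratio of mean FPKM, EGR1 was at -0.0045, PHLDA1 at 0.019, SPRY2 at -0.052 and TGFA at -0.026. With a tumor or mouse left out the log2 fold change changed sign for ASNS (-0.14 to 0.017), BCL2A1 (-1.002 to 0.049), BRAF (-0.016 to 0.11), CDC6 (-1.28 to 0.066), CDK4 (-0.21 to 0.027), CDKN1B (-0.16 to 0.010), DUSP1 (-0.21 to 0.17), DUSP4 (-0.25 to 0.12), EGR1 (-0.13 to 0.34), ETV4 (-0.11 to 0.055), ETV5 (-0.023 to 0.19), FASN (-0.41 to 0.0047), FN1 (-0.20 to 0.75), FOS (-0.062 to 0.15), HMGA2 (-0.059 to 0.16), HSPH1 (-0.16 to 0.050), JUNB (-0.25 to 0.068), MITF (-0.19 to 0.28), MKI67 (-0.27 to 0.053), MMP1 (-1.38 to 0.047), NFKBIA (-0.18 to 0.048), NRAS (-0.054 to 0.0019), NRG1 (-1.32 to 0.072), PHLDA1 (-0.42 to 0.40), PMAIP1 (-0.38 to 0.072), SOX10 (-0.0077 to 0.29), SPRED1 (-0.0018 to 0.13), SPRED2 (-0.0043 to 0.37), SPRY2 (-0.44 to 0.47), SPRY4 (-0.27 to 0.012), SQSTM1 (-0.078 to 0.089), TGFA (-0.23 to 0.23) and TYMS (-0.28 to 0.026). No paired analysis was possible because the V and control tumors came from different mice and share no mouse number. The number of reads is unknown, so limits from depth cannot be given, and with 2 mice a group differences between mice and between treatments are estimated from few hosts.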
